A study of Mus musculus with 6 samples.

Results

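The 10 genes described here encode parts of the inflammasome and of the interleukin 1 system. They are the sensors Nlrp3 and Aim2, the adaptor Pycard, the caspases Casp1 and Casp4, the pore protein Gsdmd, the cytokines Il1b and Il18, the receptor antagonist Il1rn and the receptor Il1r1. They were chosen by name and taken by gene symbol from a table of 27815 genes, and all 10 were found. Polyadenylated RNA had been sequenced from mouse aorta (strain C57BL/6) in 6 libraries, 2 for each of 3 groups. The ApoE group consisted of ApoE-/- mice, which lack apolipoprotein E in every cell, held on a chow diet to an age of 16 months so that calcified atherosclerotic plaques formed. The CKD group was a model of chronic kidney disease in which parts of the left kidney were taken out at 8 weeks of age and the right kidney after 1 week of recovery. A diet with 2% phosphate and drinking water with 0.45% NaCl were then given for 4 weeks, which calcifies the muscular middle layer of the vessel. Against that schedule, the CKD libraries carry an age of 16 months in their labels, and their age is uncertain. The Ctrl group was wild type and 2 months old. Genotype and age differed together between ApoE and Ctrl and cannot be told apart, and no sham-operated group was analysed here. The labels do not say that the 2 libraries of a group came from separate animals, so the p-values reflect how far these particular libraries differ, which may be a technical spread.

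An inflammasome is a protein complex that assembles in the cytosol when a sensor detects damage or microbial material. The sensor recruits the adaptor ASC, the product of Pycard, which gathers caspase-1. Active caspase-1 cuts the precursors of interleukin 1 beta and interleukin 18 into their secreted forms and cuts gasdermin D, whose freed end forms pores in the plasma membrane. Interleukin 1 beta then acts through the receptor Il1r1 on endothelium, smooth muscle and leukocytes, where it induces chemokines, adhesion molecules and matrix enzymes, and the secreted antagonist Il1rn occupies the same receptor without signalling. In atherosclerosis this pathway is known above all from plaque macrophages, in which cholesterol crystals can set off Nlrp3. The steps of cleavage and secretion are not visible in RNA, so the values below concern transcript levels only.

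Levels are given as FPKM, which divides the reads of a gene by its exon length and by the depth of the library, so that genes of unequal length can be set side by side. By the smallest step between values the libraries held 14.4 to 16.6 M reads, and for 9 of the 10 genes every value equalled a whole number of reads within 0.05. Apoe, the gene deleted in the ApoE group, stood at 13.2 and 11.4 FPKM in ApoE, 1410 and 1447 FPKM in CKD and 756 and 627 FPKM in Ctrl, so the labels and the deletion go together. Markers of contractile smooth muscle, the main cell of the vessel wall, were present in every library and lowest in ApoE. The 11 genes summed to 861 to 999 FPKM in ApoE, 4996 to 8126 FPKM in CKD and 10533 to 11642 FPKM in Ctrl. Fold changes are differences of log2(FPKM + 1) between group means with their standard errors (SE), a scale that understates the change of genes near or below 1 FPKM. They come from a single limma model of all 6 libraries, and a gene was called when its p-value, adjusted by Benjamini and Hochberg over the 14074 genes tested, was below 0.05.

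In ApoE aorta 8 of the 10 genes rose relative to Ctrl: both sensors, the adaptor, both caspases, Gsdmd, Il18 and, by far the most, Il1rn. None fell, and Il1b and Il1r1 were not called. Over all genes tested in that comparison 19.8% were called higher and 24.3% lower. The median log2 fold change was 1.31 over the 10 genes and -0.066 over all genes. In CKD aorta none of the 10 genes was called against Ctrl by limma at an adjusted p below 0.05, where 2.23% of all genes were called higher and 3.21% lower. Aim2, Casp4 and Il18 had an unadjusted p below 0.05 there by limma (0.0357, 0.0173 and 0.0122). Of all 14074 genes tested 4217 had such a p-value in that comparison, which is about the same share. The median in CKD versus Ctrl was 0.39 over the 10 genes and -0.031 over all genes. Directly between the models, 6 of the 10 genes were higher in ApoE than in CKD and none was lower, beside 18.5% of all genes called higher and 21.2% called lower.

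All 10 genes passed the filter of at least 1 FPKM in at least 2 libraries. Nlrp3, Pycard, Il1b and Il1rn did so only because of the ApoE libraries, so they could not have been tested without being high there. The counts and medians above include them and are not used as support. The comparisons ApoE versus Ctrl and CKD versus Ctrl use the same 2 Ctrl libraries, and their values are given side by side for that reason. In whole-tissue RNA, fewer cells of a type and less RNA per cell cannot be told apart, and this holds for each value below.

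Promoter sequences of 9 of the 10 genes, all but Gsdmd, were taken at 14 annotated start sites from RefSeq on build GRCm38.p6 (250 bases before to 50 bases after the start). The windows were searched on both strands for a TATA box (TATAAA), the core bound by the myeloid factor PU.1 (GAGGAA) and an AP-1 site (TGACTCA), and matches did not overlap one another. The promoters of Il1rn, the gene with the largest change, of Il1b, the cytokine with uneven values, and of Aim2, a sensor called in both comparisons with ApoE, are shown with matches in capitals.
Il1rn, start site 1, chr2:24336610-24336909, plus strand: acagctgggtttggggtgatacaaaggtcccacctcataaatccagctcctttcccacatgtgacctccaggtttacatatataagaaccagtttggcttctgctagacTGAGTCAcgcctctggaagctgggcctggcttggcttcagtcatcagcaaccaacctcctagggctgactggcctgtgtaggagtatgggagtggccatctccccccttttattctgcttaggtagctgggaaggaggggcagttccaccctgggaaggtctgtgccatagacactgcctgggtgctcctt
Il1b, chr2:129371090-129371389, minus strand: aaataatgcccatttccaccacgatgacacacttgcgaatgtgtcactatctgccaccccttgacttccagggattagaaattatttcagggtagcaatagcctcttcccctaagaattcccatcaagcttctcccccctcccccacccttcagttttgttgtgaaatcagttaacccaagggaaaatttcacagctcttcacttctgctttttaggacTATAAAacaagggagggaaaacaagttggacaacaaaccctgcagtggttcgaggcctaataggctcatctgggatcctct
Aim2, chr1:173420354-173420653, plus strand: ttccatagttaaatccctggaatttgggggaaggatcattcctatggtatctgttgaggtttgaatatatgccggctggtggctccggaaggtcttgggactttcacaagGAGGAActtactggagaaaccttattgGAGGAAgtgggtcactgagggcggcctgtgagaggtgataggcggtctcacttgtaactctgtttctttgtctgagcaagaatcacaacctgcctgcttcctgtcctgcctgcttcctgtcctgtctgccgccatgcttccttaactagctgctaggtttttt
The Il1rn window shown held an AP-1 match that begins 141 bases before start site 1, written as its reverse complement. The windows of Il1rn start sites 2 and 3 held no AP-1 match, and which start site was in use was not tested. The Il1b window held a TATA box beginning 31 bases before the start, and the Aim2 window held 2 PU.1 cores at 140 and 113 bases before it. Over the 14 windows of the 9 genes, 3 held a match to the TATA box, 4 a PU.1 core and 1 an AP-1 match. Of all 32851 promoters 13.6%, 28.3% and 5.20% held them, so a PU.1 core in 4 of 14 is about the share of all promoters. The other TATA matches began 175 bases before the start in Il18 and, at Il1rn start site 3, after the start. The 2 Casp4 windows overlapped, as did those of Il1rn start sites 2 and 3. A match is a description of letters and says nothing of binding in these aortas.

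**Figure D1:**
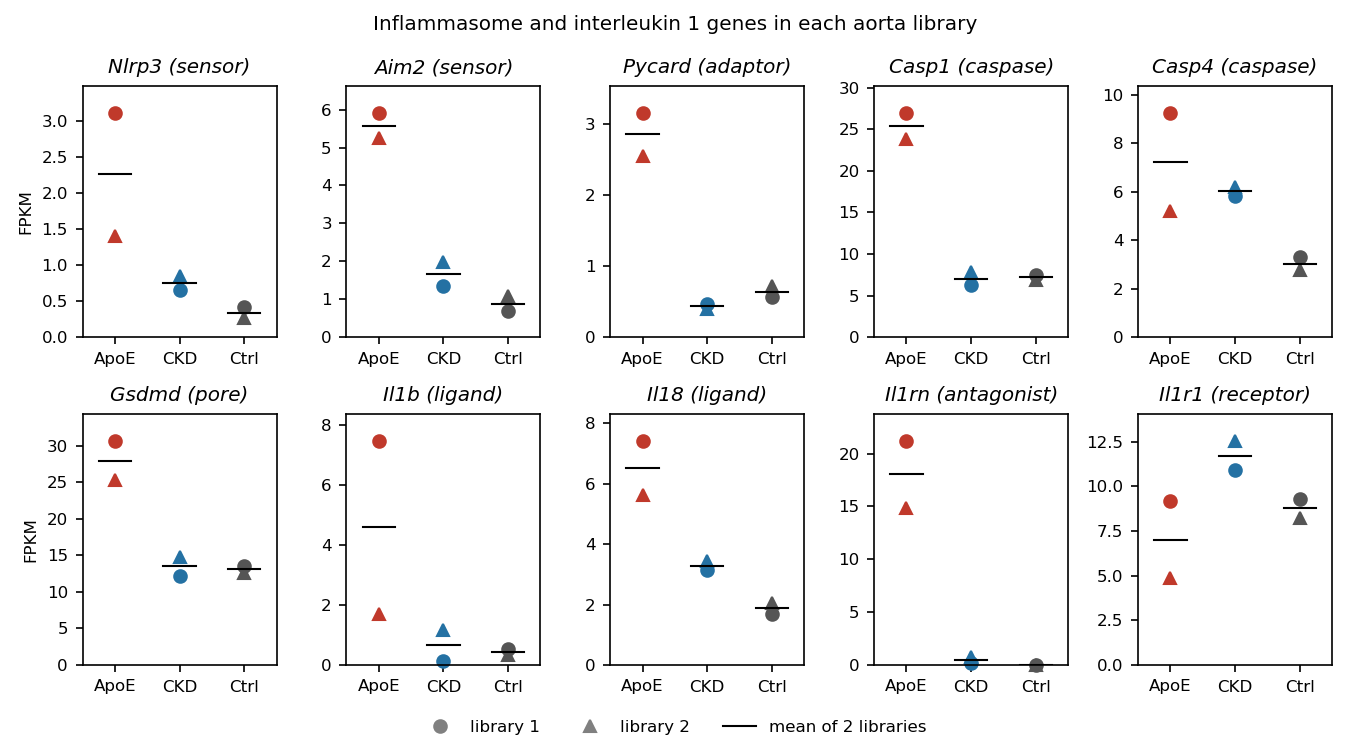
FPKM of each of the 10 genes (vertical axes from 0, scaled per gene) in the 2 libraries of ApoE, CKD and Ctrl aorta; symbols are libraries and bars the mean of the group. Both ApoE libraries lie above every other library for Nlrp3, Aim2, Pycard, Casp1, Gsdmd, Il1b, Il18 and Il1rn, while for Casp4 and Il1r1 they do not. Nlrp3, Pycard, Il1b and Il1rn passed the filter only through ApoE. The share of all genes with such a separation was not counted, so it is a description only.

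The sensors were scarce in Ctrl aorta. Nlrp3 (chr11:59541568-59566956 on build GRCm38, as for the coordinates below, plus strand), which responds to potassium loss, crystals and extracellular ATP, had 3.11 and 1.41 FPKM in ApoE, 0.650 and 0.853 FPKM in CKD and 0.415 and 0.261 FPKM in Ctrl. The 3 groups did not overlap, although the ApoE libraries differed from each other more than CKD did from Ctrl. The change was 1.24 ± 0.27 (SE; limma, adjusted p = 0.0154) for ApoE versus Ctrl, 0.39 ± 0.27 (adjusted p = 0.380) for CKD versus Ctrl and 0.85 ± 0.27 (adjusted p = 0.0543) for ApoE versus CKD. The first call rested on both Ctrl libraries, with an adjusted p of 0.0577 in limma without Ctrl 1 and 0.0748 without Ctrl 2. The difference between the models passed with an adjusted p of 0.0249 without ApoE 2, and also under other scalings named in the closing section. Aim2 (chr1:173350879-173466040, plus strand), a sensor of DNA in the cytosol, had 5.91 and 5.25 FPKM in ApoE, 1.35 and 1.98 FPKM in CKD and 0.687 and 1.08 FPKM in Ctrl. It stood highest in both ApoE libraries, and the CKD libraries lay just above Ctrl. Aim2 rose by 1.81 ± 0.19 relative to Ctrl (SE; limma, adjusted p = 0.00107) and was 1.31 ± 0.19 higher than in CKD (adjusted p = 0.00402). For CKD versus Ctrl the value was 0.50 ± 0.19 with an adjusted p of 0.140.

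Pycard (chr7:127989708-127993867, minus strand), the adaptor that links the sensors to caspase-1, had 3.15 and 2.55 FPKM in ApoE, 0.463 and 0.401 FPKM in CKD and 0.569 and 0.713 FPKM in Ctrl. It was the only one of the 10 genes whose 2 CKD libraries both lay below both Ctrl libraries while both ApoE libraries lay above them. The share of all genes with this order was not counted, so it is a description only. Pycard rose by 1.23 ± 0.16 in ApoE relative to Ctrl (SE; limma, adjusted p = 0.00243) and was 1.42 ± 0.16 higher than in CKD (adjusted p = 0.00208). The difference of -0.20 ± 0.16 between CKD and Ctrl did not pass (adjusted p = 0.445; 95% interval -0.59 to 0.20). Its exons share 485 bp of 3800 bp with Gm45205, which did not exceed 0.122 FPKM, and the library kit did not mark strand.

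The caspases lie next to each other on chromosome 9 but did not share a pattern. Casp1 (chr9:5298517-5307265, plus strand), the enzyme that matures both cytokines, had 27.0 and 23.8 FPKM in ApoE, 6.23 and 7.82 FPKM in CKD and 7.47 and 6.88 FPKM in Ctrl. The CKD and Ctrl libraries overlapped, and both ApoE libraries were more than 3-fold above their mean level. Casp1 rose by 1.69 ± 0.15 in ApoE relative to Ctrl (SE; limma, adjusted p = 0.000658) and was 1.72 ± 0.15 higher than in CKD (adjusted p = 0.00108). For CKD versus Ctrl the difference was -0.033 ± 0.15, with a 95% interval of -0.39 to 0.33 and an adjusted p of 0.901. Casp4 (chr9:5308828-5336783, plus strand), the mouse caspase-11 that detects bacterial lipopolysaccharide inside the cell and can cut gasdermin D directly, had 9.25 and 5.20 FPKM in ApoE, 5.83 and 6.21 FPKM in CKD and 3.29 and 2.78 FPKM in Ctrl. Both models stood above Ctrl in every library, and the CKD libraries lay between the 2 ApoE libraries. The change was 0.99 ± 0.24 in ApoE (SE; limma, adjusted p = 0.0222) and 0.80 ± 0.24 in CKD, where it was not called (adjusted p = 0.09997). Between ApoE and CKD the difference was 0.18 ± 0.24 (adjusted p = 0.584; 95% interval -0.42 to 0.79). The Casp4 call in ApoE was lost in limma without Ctrl 1 (adjusted p = 0.0735), without Ctrl 2 (0.105), with TPM in place of FPKM (0.0525) and with no filter on low values (0.0531).

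Gsdmd (chr15:75862327-75867408, plus strand), whose cleaved product perforates the plasma membrane, was the most abundant of the 10 genes by mean FPKM in each of the 3 groups. It had 30.7 and 25.2 FPKM in ApoE, 12.2 and 14.7 FPKM in CKD and 13.5 and 12.6 FPKM in Ctrl. The CKD libraries lay on either side of Ctrl, and the ApoE libraries were about 2-fold higher than both. Gsdmd rose by 1.04 ± 0.16 in ApoE relative to Ctrl (SE; limma, adjusted p = 0.00403) and was 1.00 ± 0.16 higher than in CKD (adjusted p = 0.00558). In CKD versus Ctrl it was at 0.039 ± 0.16 with a 95% interval of -0.34 to 0.42 and an adjusted p of 0.889. Gsdmd is the gene whose values did not come out as whole reads, with 535.4 and 452.4 in Ctrl for example, and the cause was not tested. Its level per length is less certain for that reason.

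The 2 cytokines differed in how evenly they were expressed. Il1b (chr2:129364570-129371139, minus strand) had 7.47 and 1.69 FPKM in ApoE, 0.142 and 1.16 FPKM in CKD and 0.536 and 0.346 FPKM in Ctrl. These values stand for 227 and 48 reads in ApoE, 4 and 32 reads in CKD and 17 and 10 reads in Ctrl. Both ApoE libraries were above all others, but they differed more than 4-fold between themselves, and the CKD libraries lay on either side of Ctrl. The difference between ApoE and Ctrl was 1.73 ± 0.57 (SE; limma, adjusted p = 0.0528; 95% interval 0.33 to 3.14) and that between ApoE and CKD 1.60 ± 0.57 (adjusted p = 0.0705), and neither was called. Without ApoE 2 the ApoE versus Ctrl value was 2.56 (adjusted p = 0.0218 by limma), and without ApoE 1 it was 0.91 (adjusted p = 0.172), so a single library decided it. Its exons share 25 bp with the antisense gene Il1bos, which did not exceed 0.0605 FPKM. Scaling by median ratios also brought it past the threshold, with an adjusted p of 0.0475. For CKD versus Ctrl the value was 0.13 ± 0.57, with an adjusted p of 0.901 and a 95% interval of -1.28 to 1.53.

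Il18 (chr9:50554827-50581840, plus strand), the other substrate of caspase-1 and an inducer of interferon gamma, had 7.42 and 5.61 FPKM in ApoE, 3.15 and 3.43 FPKM in CKD and 1.69 and 2.05 FPKM in Ctrl. The 3 groups formed 3 steps without overlap, with CKD between ApoE and Ctrl. Il18 rose by 1.38 ± 0.16 in ApoE relative to Ctrl (SE; limma, adjusted p = 0.00178) and was 0.80 ± 0.16 higher in ApoE than in CKD (adjusted p = 0.0129). The step between CKD and Ctrl was 0.58 ± 0.16 and was not called (adjusted p = 0.0861; 95% interval 0.18 to 0.98). Without ApoE 1 the difference between the models missed the threshold, at 0.63 with an adjusted p of 0.0559.

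Il1rn (chr2:24336853-24351494, plus strand), the secreted antagonist that blocks the interleukin 1 receptor, showed the largest fold change of the 10 genes in ApoE. It had 21.2 and 14.8 FPKM in ApoE, 0.195 and 0.776 FPKM in CKD and 0.0109 and 0.0358 FPKM in Ctrl. In reads this was 1872 and 1221 in ApoE, 16 and 62 in CKD and 1 and 3 in Ctrl, so the gene was close to undetected in Ctrl aorta and none of the groups overlapped. On the log2(FPKM + 1) scale Il1rn rose by 4.20 ± 0.25 in ApoE relative to Ctrl (SE; limma, adjusted p = 0.000275) and was 3.69 ± 0.25 higher than in CKD (adjusted p = 0.000691). Its ratio of reads, corrected for depth, was 798 for ApoE over Ctrl (95% interval 311 to 2930, exact, counting error only) and 21.2 for CKD over Ctrl (7.96 to 79.8). The CKD difference of 0.51 ± 0.25 in limma was not called (adjusted p = 0.231). Both CKD libraries were below 1 FPKM and differed about 4-fold from each other, and with a pseudocount of 0.1 the difference was 2.05 and still not called (adjusted p = 0.0854). With a pseudocount of 0.1 FPKM the ApoE versus Ctrl change was 7.18 for Il1rn and 2.35 for Nlrp3, against 4.20 and 1.24 with a pseudocount of 1.

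Il1r1 (chr1:40225080-40317257, plus strand), the receptor that carries the signal of interleukin 1, had 9.16 and 4.84 FPKM in ApoE, 10.9 and 12.6 FPKM in CKD and 9.30 and 8.22 FPKM in Ctrl. ApoE 1 lay within the Ctrl libraries and ApoE 2 below them, while both CKD libraries were above all others. None of its differences was called by limma: -0.34 ± 0.27 for ApoE versus Ctrl (SE; adjusted p = 0.337), 0.38 ± 0.27 for CKD versus Ctrl (adjusted p = 0.374) and -0.72 ± 0.27 for ApoE versus CKD (adjusted p = 0.0776). Without ApoE 1 it was called lower in ApoE, at -0.74 against Ctrl (adjusted p = 0.0358) and at -1.12 against CKD (adjusted p = 0.0172). Without ApoE 2 the value against Ctrl was 0.060, so its direction depended on which ApoE library was kept.

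**Figure D2:**
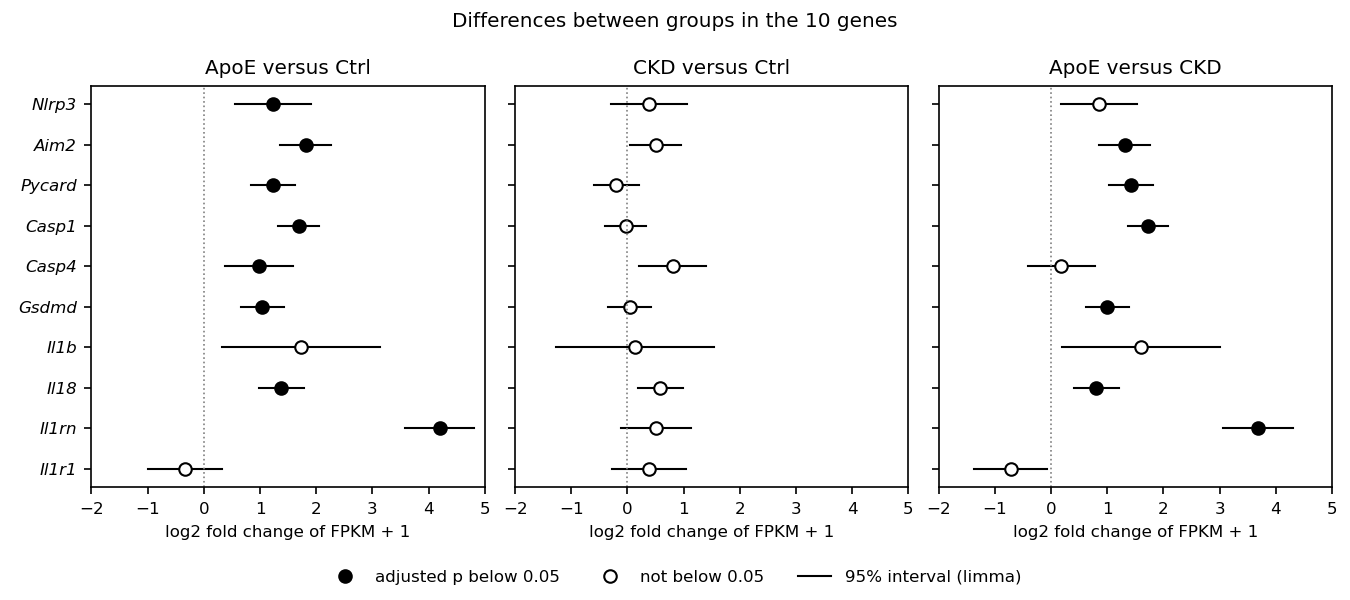
Log2 fold change of FPKM + 1 (horizontal axis) with its 95% interval from limma for the 10 genes in ApoE versus Ctrl, CKD versus Ctrl and ApoE versus CKD; filled points have an adjusted p below 0.05. In the first panel 8 points are filled, in the second none, and in the third 6, with Il1rn farthest to the right at 4.20 and 3.69 in the panels with ApoE.

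The order of the genes by level also differed between the groups. In ApoE the mean was 27.9 ± 3.85 FPKM for Gsdmd, 25.4 ± 2.22 FPKM for Casp1 and 18.03 ± 4.51 FPKM for Il1rn (SD, n = 2), followed by Casp4, Il1r1, Il18, Aim2 and Il1b between 7.23 and 4.58 FPKM and by Pycard and Nlrp3 at 2.85 and 2.26 FPKM. The libraries of Gsdmd and Casp1 overlapped, as did those of all neighbours from Casp4 to Nlrp3, so their order is not settled, while Il1rn stood apart from both sides. In CKD the leading genes were Gsdmd at 13.5 ± 1.78 FPKM and Il1r1 at 11.7 ± 1.18 FPKM (SD, n = 2), whose libraries overlapped, then Casp1, Casp4, Il18 and Aim2. Nlrp3, Il1b, Il1rn and Pycard came last with means of 0.752 to 0.432 FPKM. In Ctrl the order was Gsdmd at 13.1 ± 0.681 FPKM, Il1r1 at 8.76 ± 0.764 FPKM, Casp1 at 7.18 ± 0.412 FPKM and Casp4 at 3.03 ± 0.361 FPKM (SD, n = 2), with no overlap between these neighbours. Il1rn was last of all in Ctrl at 0.0233 ± 0.0176 FPKM. It held rank 10 in Ctrl and rank 3 in ApoE.

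Set against its agonist within the same library, the antagonist was in excess in ApoE and in deficit in Ctrl at the RNA level. The ratio of Il1rn to Il1b in FPKM was 2.84 and 8.76 in ApoE, 1.38 and 0.668 in CKD and 0.0203 and 0.103 in Ctrl. The groups did not overlap, with the CKD libraries on either side of 1. The soluble inhibitor of interleukin 18 showed a similar excess in ApoE: the ratio of Il18bp, which binds interleukin 18 in the extracellular space, to Il18 was 4.14 and 9.16 in ApoE, 0.710 and 0.688 in CKD and 0.975 and 1.11 in Ctrl. Here the CKD libraries were the lowest, below both Ctrl libraries. These ratios are descriptions without a test. The Ctrl ratios of Il1rn to Il1b rest on 1 and 3 reads of Il1rn and 17 and 10 reads of Il1b. The ratio of 1.38 in CKD 1 rests on 4 reads of Il1b. Both genes passed the filter only through ApoE.

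**Figure D3:**
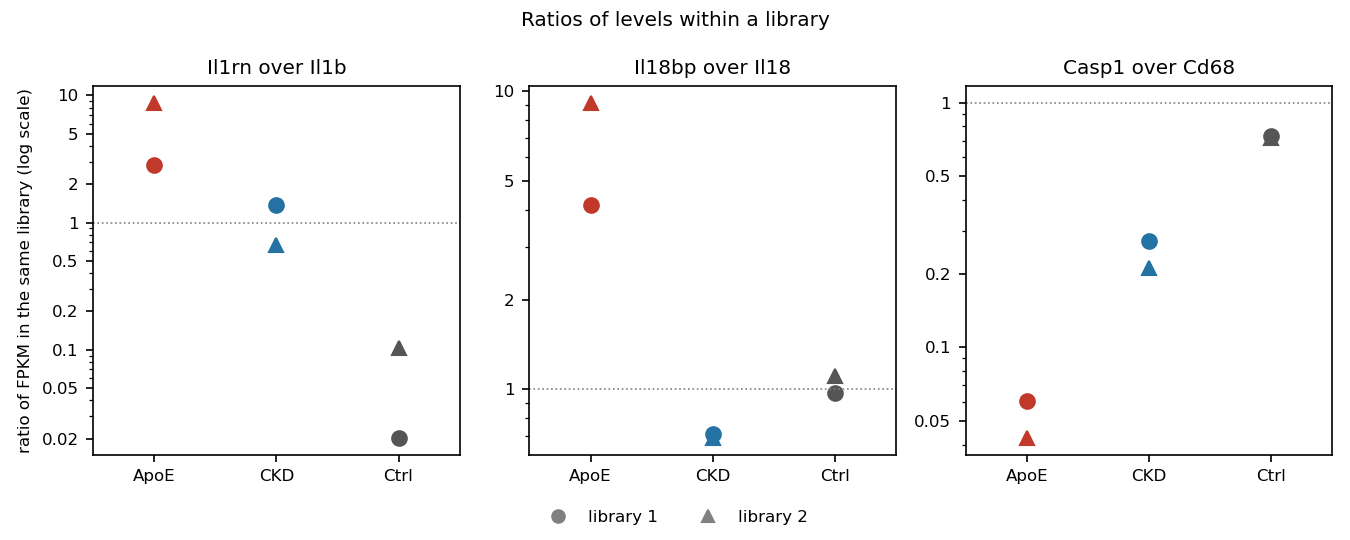
Ratio of FPKM within each library (log axis) for Il1rn over Il1b, Il18bp over Il18 and Casp1 over Cd68 in ApoE, CKD and Ctrl aorta, with 1 symbol for each library and a dotted line at 1. The first ratio is above 2 in both ApoE libraries and near or below 0.1 in both Ctrl libraries, and the last is 0.0601 and 0.0426 in ApoE and 0.730 and 0.716 in Ctrl, an order seen for 14 of 16 macrophage markers.

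Myeloid cells are known as a main source of several of these transcripts, and their markers differed between the groups. The 16 macrophage markers, led in level by Lyz2 and Ctss, summed to 11130 and 15722 FPKM in ApoE, 1417 and 2277 FPKM in CKD and 704 and 636 FPKM in Ctrl. Of these 16 genes 15 were called higher in ApoE than in Ctrl and 9 higher in CKD than in Ctrl, beside 19.8% and 2.23% of all genes. Their medians were 3.63 and 1.37 on the log2 scale. The 9 CKD calls became 0 without Ctrl 1, Ctrl 2, ApoE 1 or ApoE 2 and 1 without CKD 1, while the 15 in ApoE stayed at 15 or 16 with any 1 library left out. None of the 16 was at 0 in any library. Casp1, Gsdmd, Il1rn, Il1b and Pycard were therefore also expressed per unit of Cd68, a lysosomal protein of macrophages with 449 and 559 FPKM in ApoE, 22.8 and 37.1 FPKM in CKD and 10.2 and 9.62 FPKM in Ctrl. The ratio of Casp1 to Cd68 was 0.0601 and 0.0426 in ApoE, 0.273 and 0.211 in CKD and 0.730 and 0.716 in Ctrl, and those of Gsdmd and Pycard had the same order of groups. This order depends on the marker: over the 16 markers in turn, both ApoE ratios of Casp1 were below both Ctrl ratios for 14 and above them for 2, those of Gsdmd below for 15, and those of Pycard below for 13 and above for 2. Over Csf1r, the receptor for the macrophage growth factor, the ratio of Casp1 was 0.394 and 0.382 in ApoE, 0.176 and 0.147 in CKD and 0.306 and 0.373 in Ctrl. For Il1rn both ApoE ratios were above both Ctrl ratios for all 16 markers. These 16 orders reuse the same Il1rn values, and those of Ctrl rest on 1 and 3 reads. Il1rn, Il1b and Pycard passed the filter only through ApoE, so their orders are descriptions and not support. Per Cd68 Il1rn stood at 0.0473 and 0.0266 in ApoE, 0.00857 and 0.0209 in CKD and 0.00106 and 0.00372 in Ctrl. Il1b per Cd68 was 0.0166 and 0.00303 in ApoE, 0.00622 and 0.0313 in CKD and 0.0524 and 0.0360 in Ctrl, with ApoE and CKD overlapping, and over the 16 markers its ApoE ratios lay below Ctrl for 5, above for 2 and overlapped for 9. The part of macrophage markers in the changes of the 10 genes was not tested.

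Markers of neighbouring tissue and of lymphocytes also varied. The 8 adipocyte markers summed to 1183 and 1137 FPKM in ApoE, 2666 and 832 FPKM in CKD and 137 and 350 FPKM in Ctrl, and the 6 markers of mesothelium, the lining of body cavities, to 8.70 and 5.68 FPKM in ApoE, 56.2 and 45.7 FPKM in CKD and 0.589 and 1.28 FPKM in Ctrl. The 7 T cell markers summed to 10.5 and 24.7 FPKM in ApoE, 0.838 and 1.08 FPKM in CKD and 3.87 and 39.2 FPKM in Ctrl. Fat and mesothelial markers were thus lowest in Ctrl, and Ctrl 2 stood apart from Ctrl 1 by its T cell markers. All 11 markers of contractile smooth muscle were called lower in ApoE than in Ctrl by limma, with a median of -3.50. In CKD 2 of the 11 were called lower than in Ctrl. Of 9 fibroblast markers 5 were lower in ApoE and 1 in CKD. Over all genes 24.3% were called lower in ApoE and 3.21% in CKD. The part of all these markers in the values of the 10 genes was not tested.

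The uneven Il1b values went beside other myeloid markers. The 9 neutrophil markers, led by S100a9 and S100a8, summed to 51.4 and 10.6 FPKM in ApoE, 3.99 and 19.9 FPKM in CKD and 1.74 and 24.2 FPKM in Ctrl. The 5 monocyte markers summed to 68.1 and 16.2 FPKM in ApoE, 8.45 and 18.4 FPKM in CKD and 6.36 and 12.1 FPKM in Ctrl. Within ApoE and within CKD, the library with more Il1b had the higher neutrophil and monocyte sums, whereas within Ctrl it had the lower ones. The macrophage sum was lower in ApoE 1, the ApoE library with more Il1b. Within CKD and within Ctrl, the macrophage sum was higher in the library with more Il1b. Ly6g, the surface protein that defines mouse neutrophils, was at 0.266 FPKM in ApoE 1 and at 0 in the other 5 libraries, and 7 of the 9 neutrophil genes were at 0 in some library. None of the 5 neutrophil genes tested was called in ApoE or CKD against Ctrl by limma, and 0 had an unadjusted p below 0.05. The part of these cells in the Il1b values was not tested.

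**Figure D4:**
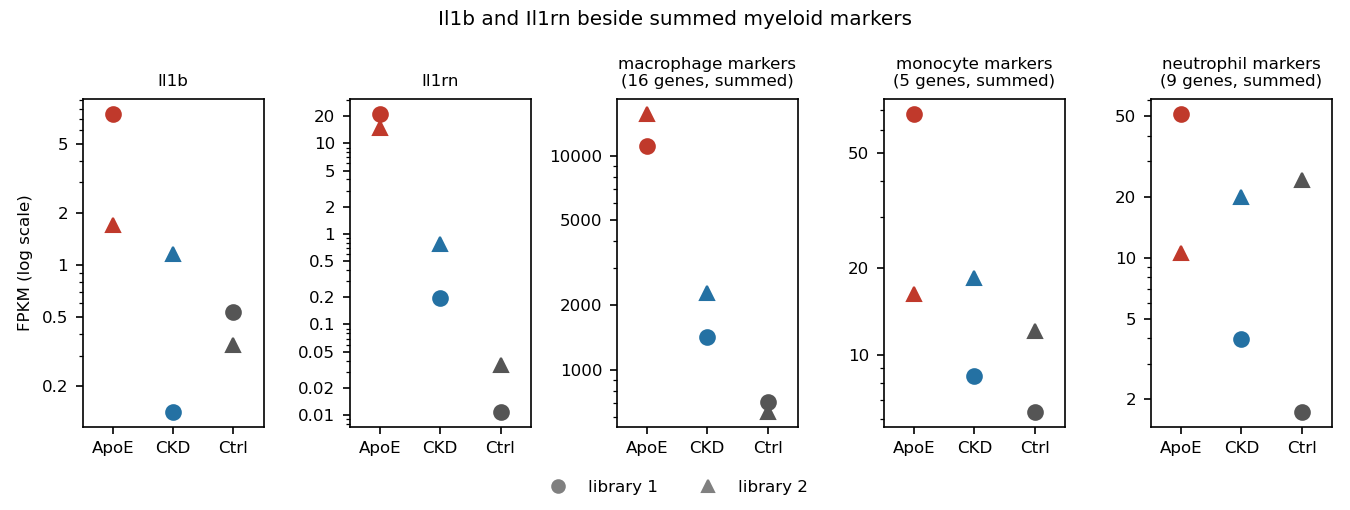
FPKM on log axes of Il1b, Il1rn and the summed markers of macrophages, monocytes and neutrophils in each library of ApoE, CKD and Ctrl aorta. Macrophage sums are 11130 and 15722 FPKM in the ApoE libraries, while the neutrophil sum is 51.4 FPKM in ApoE 1 and 10.6 FPKM in ApoE 2, the libraries with 7.47 and 1.69 FPKM of Il1b.

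Further members of the pathway were taken in 5 lists that exclude the 10 genes. In the list of other inflammasome sensors and priming genes 17 of 23 were tested, and 9 were higher and 1 lower in ApoE than in Ctrl, beside 19.8% and 24.3% of all genes. Of the 9, Nlrc4, Mefv, Naip2, Naip5, Naip6 and Panx1 passed the filter only through the ApoE libraries, a choice that favours such a call. Of the 10 tested genes that passed without ApoE, 3 were higher, and neither count is used as support. The list median of 1.04 includes the genes that passed only through ApoE and is not support either. Mefv, which encodes the sensor pyrin, rose by 2.43 ± 0.17 (SE; limma, adjusted p = 0.000345), with 5.39 and 4.31 FPKM in ApoE, 0.0412 and 0.0844 FPKM in CKD and 0.0549 and 0.101 FPKM in Ctrl. Naip2 and Naip5, receptors for bacterial secretion proteins and flagellin, rose by 2.36 and 2.28, and P2rx4, an ATP-gated channel, by 2.33. Naip genes are near-identical copies between which reads can be split, so their separate values are uncertain. Txnip, a thioredoxin-binding protein that can associate with Nlrp3, was the gene that fell, by 0.95 on the log2 scale (adjusted p = 0.0227), with 119 and 146 FPKM in ApoE, 413 and 282 FPKM in CKD and 248 and 263 FPKM in Ctrl. In CKD 2 genes of this list were lower than in Ctrl and none higher. They were the interferon-inducible GTPases Gbp5, which fell by 1.26 (limma, adjusted p = 0.0274), with 0.652 and 1.03 FPKM in CKD and 3.76 and 3.07 FPKM in Ctrl, and Gbp2, which fell by 1.01 (adjusted p = 0.0477). Neither call held when Ctrl 1, Ctrl 2, ApoE 1, ApoE 2 or CKD 1 was left out, with adjusted p-values of 0.0693 to 0.185 for Gbp5 and 0.1002 to 0.268 for Gbp2. Txnip and Il1a, a gene of a later list, share exon bases with genes that did not exceed 0.565 and 0.189 FPKM, and Gbp2 shares 24 bp with a microRNA gene.

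Of the other caspases, gasdermins and genes of membrane rupture, 10 of 12 were tested, all of which passed the filter without the ApoE libraries. In ApoE 8 were higher and 1 lower than in Ctrl, beside 19.8% and 24.3% of all genes, and the median was 0.73. Mlkl, the membrane-rupturing protein of necroptosis, rose by 1.33 ± 0.13 (SE; limma, adjusted p = 0.000852) and its activating kinase Ripk3 by 1.30 (adjusted p = 0.00277). Casp8, a caspase that starts apoptosis, rose by 1.23 (adjusted p = 0.00326), while Casp12, a caspase linked to the endoplasmic reticulum, fell by 0.92 (adjusted p = 0.0310). By limma 4 genes had an unadjusted p below 0.05 in CKD, 2 of them higher, beside 4217 of all 14074 genes. None of this list was called there. Its most abundant gene, Ninj1, which ruptures the membrane of dying cells, had 128 and 146 FPKM in ApoE, 100 and 121 FPKM in CKD and 68.4 and 61.8 FPKM in Ctrl, and its CKD difference of 0.75 had an adjusted p of 0.0620. The count of 8 depended on the libraries, at 5 without Ctrl 1, 4 without Ctrl 2 and 5 without ApoE 1.

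Of 17 further ligands, receptors and decoys of the interleukin 1 family, 12 were in the table and 6 were tested, of which 3 were higher in ApoE than in Ctrl and none lower, beside 19.8% and 24.3% of all genes, with a median of 0.30. Il1a passed the filter only through ApoE, and the median includes it. Il18bp had 30.8 and 51.4 FPKM in ApoE, 2.23 and 2.36 FPKM in CKD and 1.65 and 2.27 FPKM in Ctrl, and rose by 3.79 ± 0.25 in ApoE (SE; limma, adjusted p = 0.000342). It shares 80 bp of 3026 bp of exon with Numa1 on the other strand, which reached 28.9 FPKM. Il1a, the interleukin 1 that is active without caspase-1, had 4.99 and 10.8 FPKM in ApoE, 0.0685 and 0 FPKM in CKD and 0.0609 and 0.0335 FPKM in Ctrl. It rose by 3.01 in ApoE (adjusted p = 0.00128), and its depth-corrected ratio of reads to Ctrl was 163 (95% interval 55.6 to 795, counting error only, with 3 reads in Ctrl). In contrast to Il1b, Il1a was higher in ApoE 2 than in ApoE 1. Il1rl2, the receptor of interleukin 36, rose by 0.74 (adjusted p = 0.0278). None of the 6 was called in CKD by limma. Il1rl2 and Sigirr had an unadjusted p below 0.05 there, beside 4217 of all 14074 genes. Il33, the most abundant, was not called, with 35.9 and 10.98 FPKM in ApoE, 12.7 and 16.8 FPKM in CKD and 25.7 and 24.2 FPKM in Ctrl.

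The next list held the signalling chain below the receptor. All 28 genes of that list were tested, and 7 were higher and 1 lower in ApoE than in Ctrl, with a median of 0.13 beside -0.066 over all genes. With 19.8% of all genes called higher, 7 of 28 is near the background and is not a result about the list. Irak4, the kinase recruited first by the receptor complex, rose by 1.04 (limma, adjusted p = 0.00140), Tnfaip3, which encodes the feedback inhibitor A20, by 1.75 (adjusted p = 0.00137), and the NF-kappaB subunits Rel and Nfkb2 by 1.09 and 0.83. Irak4 shares 395 bp of exon with Twf1 and Nfkb2 299 bp with Psd, both on the other strand, so their values are uncertain to that extent. Map2k3, a kinase upstream of p38, fell by 0.60 (adjusted p = 0.0146). No gene of this list was called in CKD versus Ctrl. In limma 8 of the 28 had an unadjusted p below 0.05, all higher. Of all 14074 genes 4217 had such a p-value in either direction, so the count of 8 is near the background. The list median there was 0.27, and its most abundant gene, Nfkbia, had 140 and 101 FPKM in CKD and 66.1 and 93.1 FPKM in Ctrl.

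Genes that interleukin 1 induces, many of which other stimuli induce as well, made up the last list, with 18 of 22 tested. In ApoE 11 were higher than in Ctrl and none lower, beside 19.8% and 24.3% of all genes, with a median of 1.53. Cxcl2, Saa3 and Nos2 among them passed the filter only through ApoE and are not support, and of the 15 others 8 were higher. The median includes Cxcl2, Saa3 and Nos2 and is not support either. The collagenase Mmp13 rose by 3.43 ± 0.31 (SE; limma, adjusted p = 0.000768), with 20.8 and 13.5 FPKM in ApoE, 1.64 and 3.08 FPKM in CKD and 0.944 and 0.395 FPKM in Ctrl. Ptges, which makes prostaglandin E, rose by 1.85, the inducible nitric oxide synthase Nos2 by 1.22 and the endothelial adhesion molecule Sele by 2.65. In CKD the gene that rose was Has1, a hyaluronan synthase, with 2.88 and 2.39 FPKM in CKD and 1.04 and 0.601 FPKM in Ctrl (1.01, adjusted p = 0.0392), and the list median was 0.60. This call did not hold when Ctrl 1, Ctrl 2, ApoE 1, ApoE 2 or CKD 1 was left out (adjusted p = 0.0864 to 0.175). Csf2 was at 0 in both CKD and both Ctrl libraries and at 0.314 and 0.0841 FPKM in ApoE, below the filter. Without Ctrl 1 the count of 11 was 7.

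**Figure D5:**
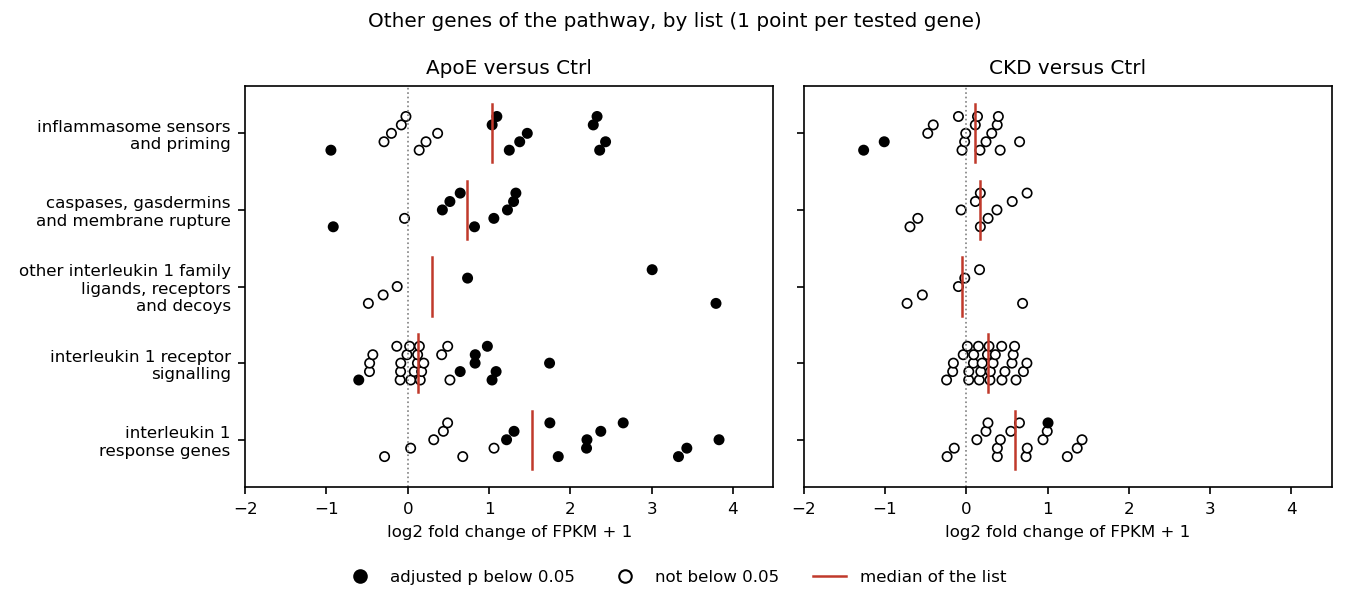
Log2 fold change of FPKM + 1 (horizontal axis) for every tested gene of the 5 pathway lists, in ApoE versus Ctrl and CKD versus Ctrl; filled points have an adjusted p below 0.05 and the vertical bar is the median of the list. In ApoE the response genes have the highest median, 1.53, and the receptor signalling genes the lowest, 0.13, while in CKD the medians lie between -0.058 and 0.60. Where a list holds genes that passed the filter only through ApoE, its median includes them, and the order of medians is not used as support.

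Between the models, the counts higher and lower in ApoE than in CKD were 10 and 1 for the sensors, 5 and 0 for the caspases and rupture genes, 2 and 0 for the other family members, 6 and 4 for signalling and 8 and 1 for the response genes. Of all genes 18.5% were higher and 21.2% lower, so the signalling counts of 28 genes are near the background. Of the genes called higher, 5 sensors, 1 other family member, 1 signalling gene and 1 response gene had passed the filter only through ApoE. The signalling split was not stable, at 3 and 3 without ApoE 1, 3 and 0 without ApoE 2, 3 and 1 without CKD 1 and 3 and 7 with TPM in place of FPKM, which turns it over. For the response genes it was 5 and 2 without ApoE 1. With TPM in place of FPKM the median of all genes in ApoE versus Ctrl moved to -0.34, and the counts higher and lower in that comparison were 9 and 2, 5 and 1, 2 and 1, 6 and 4, and 11 and 0 in the order of the lists above.

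For each of the 10 genes the genes with the most alike pattern were sought among 12227 named genes that passed the filter, by the root mean square difference of centred log2(FPKM + 1) over the 6 libraries. Il1rn was closest to Lcp1, an actin-bundling protein of leukocytes, at 0.151, then to C3ar1, a complement receptor, and Basp1. Lcp1 shares exon bases with other annotated genes. The nearest gene to Il1b was Oas2, at 0.218, the widest distance among the 10. Casp1 lay closest to Coro2a, which also overlaps another gene, at 0.0521 and Gsdmd to Skap2 at 0.0529. For Pycard the nearest was Smox at 0.0643, for Aim2 Gch1 at 0.0674 and for Nlrp3 the complement gene C6 at 0.0893. Il1r1 was nearest to Sorcs2 at 0.0435 and had Csf1, the macrophage growth factor, among its 3 nearest at 0.0968. Il18 was nearest to Serpinb9b at 0.102 and Casp4 to Ifitm1 at 0.104. With 6 points from 3 groups such likeness is a description, and every pair shares the same libraries.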

How the data were processed

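Per the labels' protocols, polyadenylated RNA was purified from total RNA of mouse aorta and made into libraries with a kit that does not mark strand. The deposited values carry no unit in a header, and were taken as FPKM from the values themselves: multiplied by the summed exon length of GENCODE M21, 91.0% to 91.5% of them gave whole reads within 0.05. In 5 of the 6 deposited files a single column held first all gene identifiers and then all values; read in that order, these other values have the same unit, FPKM. The tools named, per the submitters' processing notes, are HISAT2 2.1.0, TopHat2 and Bowtie2 2.2.3, and the build is GRCm38. What each tool did, how reads were counted and which annotation served is not given in the sources used here. Symbols matched for 27695 of 27815 identifiers. Coordinates are those of GENCODE M21 on GRCm38.

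A gene was kept if 2 or more libraries had at least 1 FPKM, which left 14074 genes, and log2(FPKM + 1) was modelled with limma 3.58.1 in R 4.3.3 (group means of all 6 libraries, variance trend and robust spread, Benjamini-Hochberg adjustment over all genes tested, threshold 0.05). Ratios of reads have exact conditional binomial 95% intervals, which cover counting error only. The fit was tested on simulated data. Alternatives were another pseudocount, no filter, 3 scalings, another spread, a replicate block, only the 4 libraries compared and each library left out. The 10 genes and all lists were chosen with earlier results of these data known. Genes named from a list are the up to 4 called genes with the smallest adjusted p in each comparison, or the most abundant where none was called, and from marker lists the 2 most abundant; 1 gene that this rule selects is not reported here; Txnip, Casp12, Map2k3, Cd68, Csf1r, Csf2, Ly6g and the genes listed for passing the filter only through ApoE were named after their values were seen.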

Additional observations from a re-analysis of the deposited data

Results flagged for a closer look

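Pycard stood out because the libraries of the 2 disease models lay on opposite sides of Ctrl. Both ApoE libraries lay above every Ctrl library and both CKD libraries below every Ctrl library. How many of all genes have this order was not counted, so it is a description only. Pycard passed the filter only through ApoE, so its place above Ctrl in ApoE is not used as support. The direct difference between ApoE and CKD was 1.42 on the log2(FPKM + 1) scale (limma, adjusted p = 0.00208), while the CKD part alone, at -0.20 against Ctrl, was not called (adjusted p = 0.445). It was below 1 FPKM in all CKD and Ctrl libraries, with 26 and 22 reads in CKD and 36 and 41 reads in Ctrl.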

How the results depend on the processing

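With 2 libraries a group, single libraries weigh heavily. The 8 genes called in ApoE versus Ctrl became 6 to 9 when 1 library was left out, the 6 called in ApoE versus CKD became 6 to 8, and in CKD versus Ctrl the number stayed at 0. Over all genes, the 6208 called in ApoE versus Ctrl became 3021 to 7019, the 5592 in ApoE versus CKD 2914 to 5045 and the 766 in CKD versus Ctrl 0 to 2416 (2416 without CKD 2, 38 without CKD 1). The CKD versus Ctrl count was also 1 with no filter on low values, 1 with only the 4 libraries compared and 46 with the replicate block. The numbers in the library names pair no samples by the labels, and deviations of same-numbered libraries correlated at 0.046, -0.23 and -0.097; the block changed no call among the 10 genes. Aim2, Pycard, Casp1, Gsdmd, Il18 and Il1rn were called in ApoE versus Ctrl under all 14 alternatives. These alternatives are not independent of one another. With a CKD library left out or only the 4 libraries compared, the ApoE versus Ctrl fold changes of the 10 genes stayed the same. Pycard and Il1rn passed the filter only through ApoE. Nlrp3 in ApoE versus CKD was called with median-ratio scaling (adjusted p = 0.0403 by limma), upper-quartile scaling (0.0443) and a spread without trend (0.0482). Directions turned only where the difference was not called with all libraries. In CKD versus Ctrl, Gsdmd was at -0.13 with TPM and, with 1 library left out, between -0.087 and 0.16, Casp1 between -0.18 and 0.11 and Il1b between -0.33 and 0.59. In ApoE versus Ctrl, Il1r1 lay between -0.74 (without ApoE 1) and 0.060 (without ApoE 2), and in ApoE versus CKD, Casp4 lay between -0.18 (without ApoE 1) and 0.55 (without ApoE 2). With TPM, 1919 genes were higher and 4708 lower in ApoE than in Ctrl, against 2781 and 3427 with FPKM, and the medians of all genes moved to -0.34 in ApoE versus Ctrl, -0.20 in CKD versus Ctrl and -0.14 in ApoE versus CKD. The cause of these shifts was not tested. In Ctrl, depth limits Il1rn, Il1b and Nlrp3 most, with at most 28 reads per Ctrl library. Other counts were low as well, with 26 and 22 reads of Pycard in CKD and 29 and 32 reads of Il18 in Ctrl.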
